A study of Homo sapiens with 6 samples.

Results

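The metalloproteases of the MMP, ADAM, ADAMTS and ADAMTS-like families and their TIMP inhibitors were examined in PC-3 cells treated with S-adenosylmethionine (SAM) or with vehicle. PC-3 is an established line from a metastasis of a human prostate carcinoma. The SAM group received 160 micromolar SAM and the control group, labelled PBS, received vehicle, both for 5 days, with 3 RNA sequencing libraries per group. Members were all genes whose symbol in the deposited count table names an MMP, an ADAM, an ADAMTS, an ADAMTS-like protein or a TIMP by number. This gave 71 of 57396 genes, with 22 MMPs, 21 ADAMs, 19 ADAMTSs, 5 ADAMTS-like genes and 4 TIMPs. As a model they represent 1 cell line without stroma. Since the labels do not say if each library had a culture of its own, p-values cover library-to-library spread, possibly only technical.

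MMPs, ADAMs and ADAMTSs are zinc-dependent endopeptidases that are made as inactive proenzymes. MMPs cleave collagens, laminins and other matrix proteins and are either secreted or held at the cell membrane. ADAMs are membrane proteins that release the outer parts of growth factors, receptors and adhesion molecules, whereas ADAMTSs are secreted and cut proteoglycans, procollagens and other matrix proteins. ADAMTS-like proteins resemble ADAMTSs but lack the protease domain. TIMPs block the active site of MMPs, and TIMP3 is also the main TIMP for ADAM17 and several ADAMTSs. SAM is the methyl donor of cellular methyltransferases, and the study treated prostate cancer cells with it to influence their methylation and their growth, migration and invasion.

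The libraries held between 9379258 and 28995160 gene counts, so that 3 counts corresponded to between 0.103 and 0.320 CPM (the gene's count scaled to a common library size). The epithelial markers EPCAM, KRT8, KRT18, KRT19 and CDH1 were all present. Their summed level was 3331 to 3474 CPM in controls and 2851 to 3595 CPM with SAM. CDH1 fell from a mean of 365 to 267 CPM, without overlap (edgeR adjusted p = 0.0298), and the other 4 did not pass the edgeR test described below. The call of CDH1 was lost without control 1, 2 or 3 and without SAM 1. KLK3 and KLK2, secreted proteases of luminal prostate cells, had no count. Of 7 fibroblast markers, DCN and LUM had no count and 1, COL1A1, reached 1 CPM. Control 1 and SAM 2 deviated together from their group means (r = 0.45 over genes, a description). SAM 3 stood apart in GC content, its log2 CPM gaining 0.12 for 10 points of GC, where the remaining libraries lay from -0.06 to -0.001. For each doubling of transcript length, log2 CPM changed by 0.0082 to 0.068 in controls, and by -0.050, 0.033 and -0.11 in SAM 1, 2 and 3.

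Of the 71 members, 42 had enough counts to be tested, 20 had counts too low for the test, with at most 11 in any library, and 9 had no count in any library. A count of 0 allows a level of up to 0.103 to 0.320 CPM, depending on the library. The members' share of all counts was 0.255% ± 0.00138 (SD over 3 libraries) for controls and 0.222% ± 0.00607 for SAM. A share is relative to the counts of all other genes. It therefore does not show if the members' RNA per cell or the number of expressing cells fell, and bulk RNA cannot tell these apart. The groups did not overlap, with 0.253 to 0.256% in controls and 0.216 to 0.228% with SAM. ADAM19 alone held 28.7% ± 1.34 of the members' counts in controls and 23.0% ± 1.62 with SAM. Without ADAM19 the share was 0.181% ± 0.00397 in controls and 0.171% ± 0.00173 with SAM, and the groups still did not overlap.

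Levels were compared between genes as CPM per kb of the longest transcript. In controls the most abundant member was ADAM19, a membrane protease also called meltrin beta, at 112 ± 6.34 CPM per kb. It was followed by TIMP1 at 79.6 ± 6.25, TIMP2 at 67.8 ± 2.28, ADAM15 at 65.9 ± 3.74, MMP14 at 61.1 ± 1.83 and ADAM8 at 54.6 ± 4.41 CPM per kb (SD over 3 libraries). TIMP2 and ADAM15 did not differ beyond their spread, and neither did ADAM15 and MMP14. With SAM the order began with TIMP1 at 110 ± 26.1 CPM per kb, ADAM19 at 79.6 ± 8.27 and ADAM15 at 66.4 ± 5.79, and the spreads of TIMP1 and ADAM19 met. The summed level of the ADAM family was 289 ± 3.07 CPM per kb in controls and 246 ± 12.0 with SAM, without overlap of the groups. Without ADAM19 it was 171 to 185 CPM per kb in controls and 162 to 170 with SAM, still without overlap. The ADAMTS family summed to 17.9 ± 0.411 and 23.8 ± 3.60 CPM per kb, also without overlap. Without ADAMTS1 the ADAMTS sums were 15.0 to 15.9 CPM per kb in controls and 13.9 to 17.6 with SAM, with overlap. The MMP family summed to 136 to 139 CPM per kb in controls and 122 to 147 with SAM, with overlap.

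**Figure D1:**
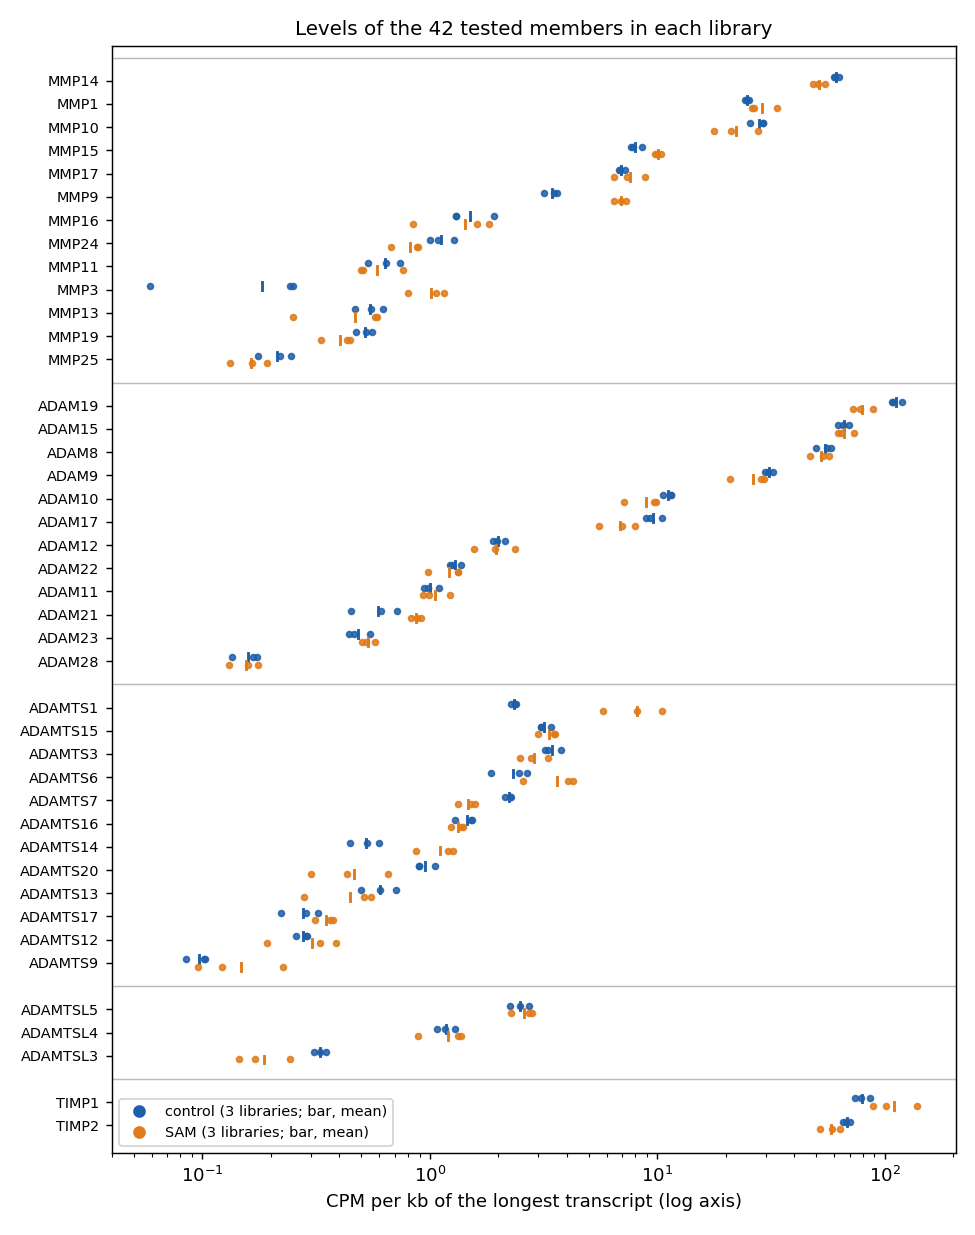
CPM per kb of the longest transcript on a log axis (horizontal) for the 42 tested members by family (vertical), blue for controls and orange for SAM. Each point is 1 library and each bar a group mean. ADAM19 stands at 112 CPM per kb in controls and 79.6 with SAM, and ADAMTS1 moves from 2.35 to 8.14 CPM per kb.

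Members that were nearly absent included well-known ones. MMP2, the gelatinase of stromal cells, had 1 count over the controls and 1 over the SAM libraries. TIMP3 had 0 and 1 counts, TIMP4 had 4 and 6, and ADAMTS5, an aggrecanase, had 4 and 7. MMP7, a matrilysin of glandular epithelium, had 16 counts in controls and 22 with SAM, below the limit for testing. The 9 members without a count were MMP8, MMP26, MMP27, ADAM2, ADAM18, ADAM29, ADAM30 and the pseudogenes MMP23A and ADAM5.

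To compare SAM with vehicle, all genes were fitted together with edgeR's quasi-likelihood test, and genes under 0.05 after Benjamini-Hochberg adjustment were called. Among the 42 members in the test there were 5 rises, 5 falls and 32 that did not pass, which was 23.8% called, beside 10.4% of all 15312 genes tested. Upward and downward calls each made up 5.19% and 5.24% of all genes. In 19 of 42 members, or 45.2%, the SAM and control libraries did not overlap, beside 36.7% of all genes. The median log2 fold change of the members was -0.04 and that of all genes -0.01. The rises were MMP3, ADAMTS1, ADAMTS14, MMP9 and MMP15, and the falls were ADAMTS20, ADAMTSL3, ADAMTS7, ADAM19 and ADAM17. With library totals as the only scaling, the split over all genes moved from 795 higher and 803 lower to 608 higher and 961 lower, and that of the members to 4 and 5. Each of the 5 falls lost its call when control 1, 2 or 3 or SAM 1 was left out. The longest transcripts of the falls measured 5520 to 7299 bases and those of the rises 1822 to 5814, and all 10 calls held with the length and GC trend removed.

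**Figure D2:**
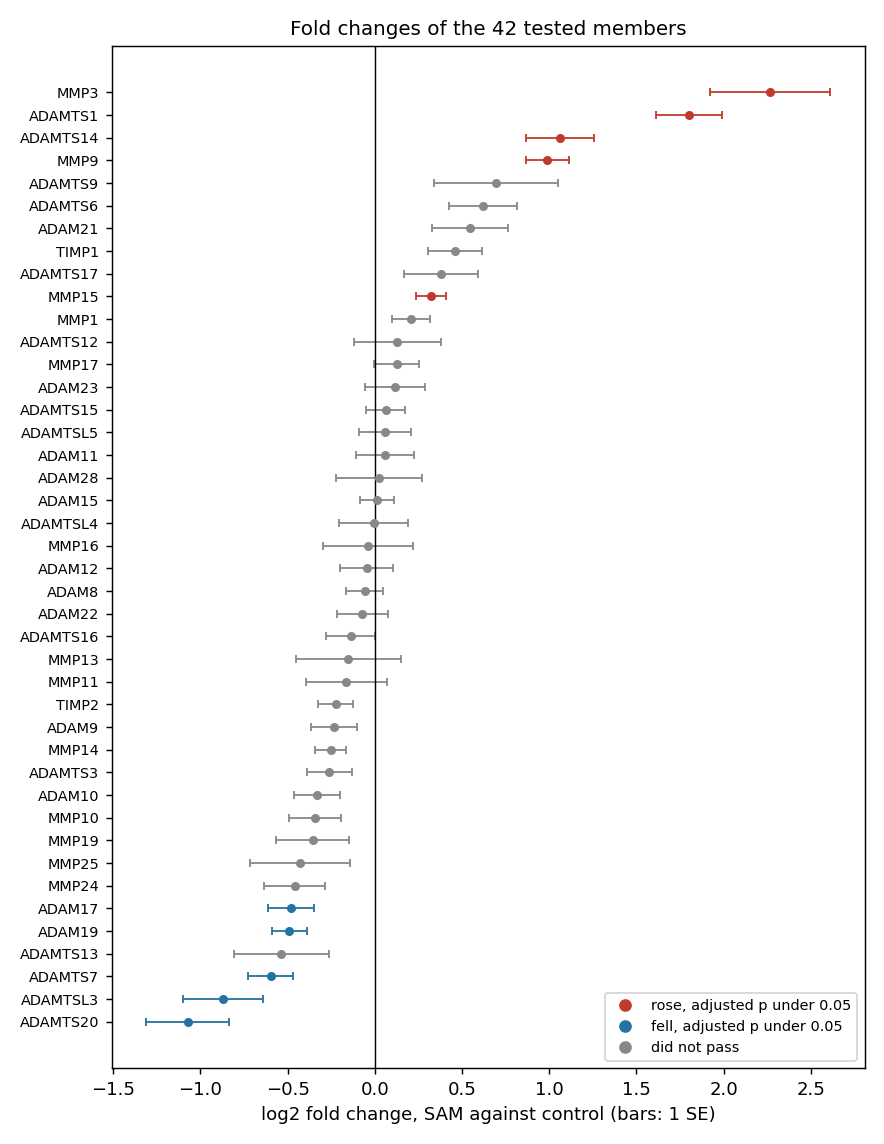
Log2 fold change of SAM against control with bars of 1 SE (horizontal) for the 42 tested members (vertical), in red for those that rose, blue for those that fell and grey for those that did not pass. The values run from -1.07 for ADAMTS20 to 2.27 for MMP3.

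Promoters from RefSeq (GRCh38.p14) were available for 44 members, among them 7 of the 10 called ones: ADAMTS14, MMP15, ADAM17, ADAM19, ADAMTS7, ADAMTS20 and ADAMTSL3. ADAMTS1, MMP9 and MMP3 were not in this set. Methylation of mammalian DNA occurs mainly at CpG dinucleotides. They were therefore counted in the 250 bases before the annotated start, although neither methylation nor the start used in these cells was measured. The 7 called members held 21 to 40 CpGs, the 2 rises 31 and 35 and the 5 falls 21 to 40, so that rises and falls overlapped. The median was 25 over the 26 tested members with a promoter and 11 over 34935 RefSeq promoters. The 18 untested members had a median of 9.5. The letters TGANTCA read as the same motif on both strands. They include the AP-1 site, TGA(C/G)TCA, and also looser forms of it. They were found in 0 of the 7 called members and in 2 of 26 tested ones (MMP10 and ADAMTS12), against 6.59% of all promoters. An NF-kB motif on either strand was found in 0 of 44 members and in 5.20% of all promoters. The sequences of ADAMTS14, the member with the largest rise in this set, of ADAM19 and ADAMTS20, a strongly expressed fall and the largest fall, and of MMP10 follow as examples of CpG-rich and CpG-poor starts, 5′ to 3′ along the gene with each CpG in capitals. They lie at chr10:70672256-70672505 (plus strand), chr5:157575776-157576025 (minus strand), chr12:43552204-43552453 (minus strand) and chr11:102780629-102780878 (minus strand).
ADAMTS14: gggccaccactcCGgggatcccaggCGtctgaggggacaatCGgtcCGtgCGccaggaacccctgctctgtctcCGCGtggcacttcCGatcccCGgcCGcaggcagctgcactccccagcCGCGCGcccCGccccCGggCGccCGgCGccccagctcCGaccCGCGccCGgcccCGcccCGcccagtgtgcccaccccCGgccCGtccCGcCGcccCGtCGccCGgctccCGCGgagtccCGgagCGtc
ADAM19: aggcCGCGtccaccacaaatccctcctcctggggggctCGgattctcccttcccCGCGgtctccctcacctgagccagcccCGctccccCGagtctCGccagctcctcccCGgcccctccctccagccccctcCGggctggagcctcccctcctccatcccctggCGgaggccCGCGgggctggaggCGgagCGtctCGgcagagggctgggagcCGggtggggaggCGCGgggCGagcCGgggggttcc
ADAMTS20: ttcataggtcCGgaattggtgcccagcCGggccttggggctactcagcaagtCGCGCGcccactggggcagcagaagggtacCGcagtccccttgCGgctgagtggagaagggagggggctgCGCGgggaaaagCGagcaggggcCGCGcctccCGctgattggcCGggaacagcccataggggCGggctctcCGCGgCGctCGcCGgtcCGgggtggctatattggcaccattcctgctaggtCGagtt
MMP10: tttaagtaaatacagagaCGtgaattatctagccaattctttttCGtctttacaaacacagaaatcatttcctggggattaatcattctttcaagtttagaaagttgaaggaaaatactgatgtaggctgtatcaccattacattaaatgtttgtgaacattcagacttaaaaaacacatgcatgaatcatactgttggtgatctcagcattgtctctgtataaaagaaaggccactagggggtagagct

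The first 3 windows held 35, 21 and 22 CpGs and that of MMP10 held 2. The match of MMP10, TGAATCA, is a looser form of the AP-1 site and began 67 bases before the start. ADAMTS14 rose and both ADAM19 and ADAMTS20 fell from CpG-rich starts, and MMP10 did not pass the test.

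Among secreted MMPs, the gelatinase and a stromelysin rose. MMP9 (ENSG00000100985, chromosome 20, positions 46008908 to 46016561), the gelatinase that cleaves denatured collagen and basement membrane collagen, stood at 7.40, 8.49 and 8.23 CPM in control 1 to 3. With SAM it stood at 15.1, 17.1 and 16.2 CPM, so that every SAM library lay well above every control. The log2 fold change was 0.99 (SE 0.12, edgeR adjusted p = 0.00258). It kept its call in all 18 alternatives, with log2 fold changes between 0.90 and 1.04.

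Because MMP9 is also a protein of macrophages and neutrophils, leukocyte markers were examined beside it. Their summed level over 7 genes was 1.29 to 2.27 CPM in controls and 2.96 to 3.04 CPM with SAM. CD68, which is not restricted to leukocytes, rose from 0.438 to 1.21 CPM (edgeR adjusted p = 0.0439). CSF1R, a receptor of macrophages, was at 0.519 ± 0.0823 and 0.912 ± 0.0604 CPM without overlap, and did not pass (log2 fold change 0.77, edgeR adjusted p = 0.0970). CD14 was at 0.133 and 0.220 CPM and ITGAM at 0.284 and 0.361 CPM, each with overlap and too low to be tested. PTPRC, which defines leukocytes, was at 0.215 to 0.545 CPM in controls and 0.169 to 0.413 CPM with SAM, CD3E was at 0.0151 and 0.0230 CPM, and MPO had no count. The part of these genes in the result was not tested.

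MMP3 (ENSG00000149968, chromosome 11, positions 102835801 to 102843803), stromelysin 1, which cleaves many matrix proteins and activates other MMPs, had the largest fold change of the tested members. The controls held 1, 10 and 9 counts and the SAM libraries 61, 23 and 22. These corresponded to 0.107, 0.454 and 0.441 CPM in controls and 2.10, 1.95 and 1.45 CPM with SAM, without overlap. The log2 fold change was 2.27 (SE 0.34, edgeR adjusted p = 0.00700). The levels were low in both groups. The call was lost without control 3 and without SAM 1, with an adjusted p of up to 0.0611 when 1 library was left out. MMP3 was also not called with DESeq2, where a missing adjusted p counts as not called.

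MMP3 lies in a cluster of MMP genes on chromosome 11, where 8 members span 435 kb. MMP1, the interstitial collagenase, is the member just before it along the chromosome, and MMP10, another stromelysin, lies before MMP1. MMP10 (positions 102770503 to 102780628) was at 44.8, 51.4 and 51.2 CPM in controls and at 31.2, 37.2 and 48.7 CPM with SAM, where SAM 3 reached into the control range. Its log2 fold change of -0.34 (SE 0.15) did not pass (edgeR adjusted p = 0.154), but without SAM 3 it was -0.54 with an adjusted p = 0.00983. MMP1 (positions 102789920 to 102798160) was at 49.0, 49.7 and 48.1 CPM in controls and at 51.6, 52.2 and 66.1 CPM with SAM, and it did not pass either (log2 fold change 0.21, edgeR adjusted p = 0.224). The ratio of MMP3 to MMP10 within a library was 0.00661 ± 0.00365 in controls and 0.0498 ± 0.0189 with SAM (SD over 3 libraries), without overlap. Such ratios are of CPM, without correction for length. MMP13, a further collagenase, had 77 counts over the controls and 77 over the SAM libraries. MMP7, MMP20, MMP27 and MMP8 in the same cluster were not tested, the last 2 without a count.

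**Figure D3:**
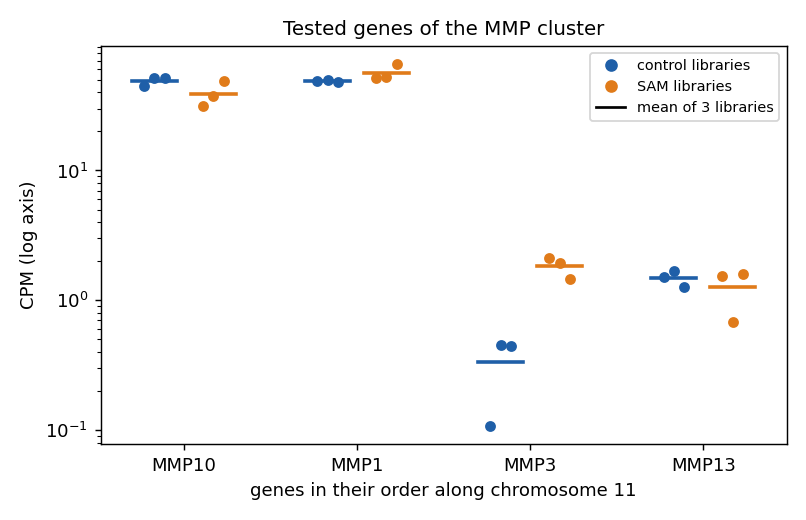
The 4 tested genes of the MMP cluster in their order along chromosome 11 (horizontal) and their level in CPM, log axis (vertical). Blue marks controls, orange marks SAM, points are libraries and bars are group means. MMP3 moves from 0.334 to 1.83 CPM while MMP10 and MMP1, at 49.2 and 48.9 CPM in controls, stand at 39.0 and 56.6 CPM with SAM.

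Of 6 membrane-type MMPs, all tested, 1 rose. MMP15 (ENSG00000102996, chromosome 16, positions 58025566 to 58046901) was at 31.9, 34.7 and 30.9 CPM in controls and at 40.4, 39.7 and 42.1 CPM with SAM. The groups did not overlap, and the difference was small, with a log2 fold change of 0.32 (SE 0.09, edgeR adjusted p = 0.0457). The call was lost in 11 of 18 alternatives, among them upper-quartile factors, library totals and limma voom. MMP14, which activates MMP2 at the cell surface and was the most abundant MMP, was at 243, 230 and 233 CPM in controls and at 187, 197 and 210 CPM with SAM. Every SAM library was lower, yet the log2 fold change of -0.25 (SE 0.09) did not pass (edgeR adjusted p = 0.0939). It passed without SAM 3 and with the length and GC trend removed. The other 4 membrane-type MMPs, and MMP11, MMP13 and MMP19, had log2 fold changes between -0.46 and 0.13 and did not pass. MMP19, the only other tested MMP outside these groups, was at 1.99 ± 0.156 CPM in controls and 1.55 ± 0.242 with SAM.

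Among the ADAMTSs, 2 members rose and 2 fell of 12 tested. ADAMTS1 (ENSG00000154734, chromosome 21, positions 26835747 to 26845409), which cleaves the proteoglycans aggrecan and versican, was at 13.9, 13.8 and 13.3 CPM in controls. In SAM 1 to 3 it was at 60.8, 47.5 and 33.7 CPM. The controls lay close together while the SAM libraries spread widely, and the lowest of them was far above the controls. The log2 fold change was 1.80 (SE 0.19, edgeR adjusted p = 0.00139). ADAMTS1 kept its call in all 18 alternatives, with values from 1.57 without SAM 1 to 2.01 without SAM 3. ADAMTS5, its neighbour on chromosome 21, had at most 5 counts in a library.

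ADAMTS20 (ENSG00000173157, chromosome 12, positions 43353866 to 43551921), a versican-cleaving relative known from pigment cell development, changed the other way. It was at 5.68, 5.68 and 6.71 CPM in controls and at 2.76, 4.14 and 1.91 CPM with SAM, without overlap (log2 fold change -1.07, SE 0.24, edgeR adjusted p = 0.0243). The ratio of ADAMTS1 to ADAMTS20 was between 1.98 and 2.45 in controls and between 11.5 and 22.1 with SAM. ADAMTS15 and ADAMTS9, further proteoglycanases, did not pass, with log2 fold changes of 0.06 and 0.70.

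ADAMTS14 (ENSG00000138316, chromosome 10, positions 70672803 to 70762441) removes the amino-terminal propeptide of fibrillar procollagens. It was at 2.47, 2.95 and 3.33 CPM in controls and at 7.03, 6.68 and 4.82 CPM with SAM. All SAM libraries were above all controls (log2 fold change 1.06, SE 0.20, edgeR adjusted p = 0.0129). ADAMTS3, the other tested enzyme of this kind, was at 21.4 ± 1.91 CPM in controls and 17.8 ± 2.65 with SAM and did not pass (log2 fold change -0.26, edgeR adjusted p = 0.201). The calls of ADAMTS14 and of ADAMTS20 were lost when any 1 control or SAM 1 was left out, and their adjusted p reached 0.0770 and 0.133, respectively.

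ADAMTS7 (ENSG00000136378, chromosome 15, positions 78759203 to 78811431), which cleaves cartilage oligomeric matrix protein, was at 12.4, 12.5 and 11.8 CPM in controls and at 7.34, 8.37 and 8.71 CPM with SAM. The groups were separated, with a log2 fold change of -0.60 (SE 0.13, edgeR adjusted p = 0.0214). ADAMTS7 has pseudogene copies on the same chromosome and overlaps MORF4L1 on the other strand, so part of its reads is uncertain. Its call was lost in 5 alternatives, namely when any 1 control, SAM 1, or the pair of control 1 and SAM 2 was left out. ADAMTS6, which acts on fibrillin-rich matrix, was at 13.5, 19.4 and 17.9 CPM in controls and at 29.5, 31.2 and 18.7 CPM with SAM, with SAM 3 inside the control range. Its log2 fold change of 0.62 (SE 0.20) did not pass (edgeR adjusted p = 0.0685), but it did in 4 alternatives, one of them without SAM 3.

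ADAMTS-like proteins fell in 1 of 3 tested members. ADAMTSL3 (ENSG00000156218, chromosome 15, positions 83654086 to 84039842), also called punctin-2, was at 2.25, 2.54 and 2.40 CPM in controls and at 1.24, 1.78 and 1.06 CPM with SAM, without overlap. The log2 fold change was -0.87 (SE 0.23, edgeR adjusted p = 0.0422), and the call was lost in 8 of 18 alternatives, among them DESeq2. ADAMTSL5 was at 6.68 ± 0.653 and 6.98 ± 0.781 CPM and did not pass, and its direction turned with the length and GC trend removed. ADAMTSL4 had a log2 fold change of -0.01.

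**Figure D4:**
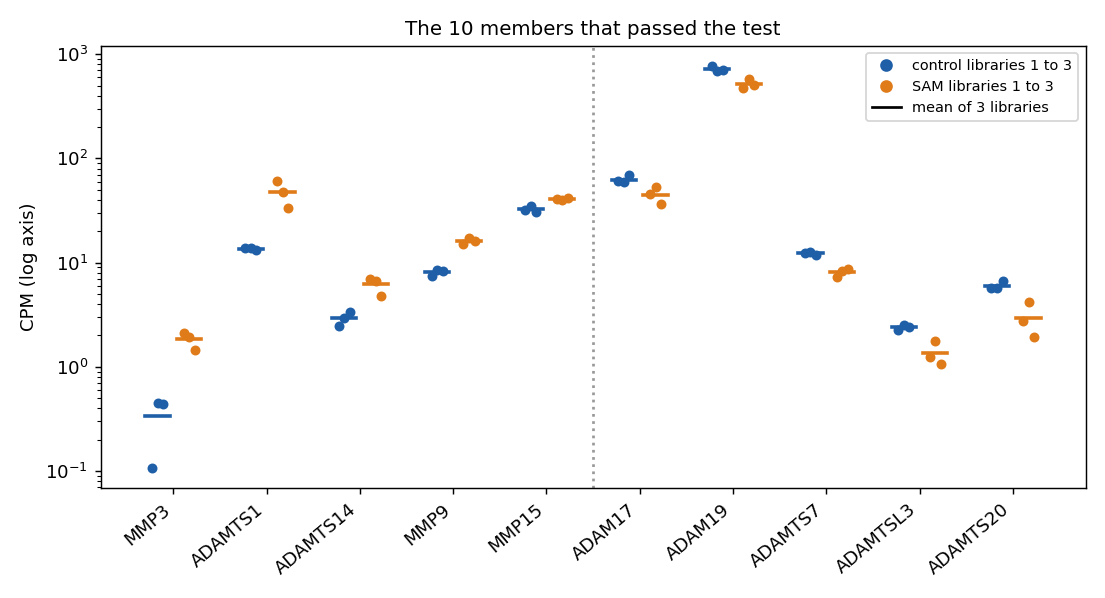
The 10 members that passed the test (horizontal), rises left of the dotted line and falls right of it, and their level in CPM, log axis (vertical). Blue marks controls, orange marks SAM, points are libraries and bars are group means. ADAMTS1 with SAM lies between 33.7 and 60.8 CPM against 13.3 to 13.9 CPM in controls, and ADAM19 with SAM between 470 and 575 CPM against 696 to 771 CPM.

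The ADAMs rose in 0 and fell in 2 of 12 tested members, and 4 of the 12 had an unadjusted p under 0.05, while DESeq2 also called no rise. These were ADAM10, ADAM17, ADAM19 and ADAM21, the last at 1.87 ± 0.428 and 2.76 ± 0.130 CPM without overlap (log2 fold change 0.55, edgeR adjusted p = 0.127). Both falls carry the catalytic zinc motif. ADAM19 (ENSG00000135074, chromosome 5, positions 157395534 to 157575775), which sheds neuregulins, was at 771, 696 and 704 CPM in controls and at 470, 575 and 503 CPM with SAM. The SAM libraries were all below the controls, with a log2 fold change of -0.49 (SE 0.10, edgeR adjusted p = 0.0201). The group means were 724 ± 41.1 and 516 ± 53.6 CPM. ADAM19 overlaps CYFIP2 and NIPAL4 in the annotation. Its call was lost without control 1, 2 or 3 and without SAM 1, with an adjusted p up to 0.109.

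ADAM17 (ENSG00000151694, chromosome 2, positions 9488486 to 9555792), the enzyme that releases TNF and several ligands of the EGF receptor, was at 60.7, 58.8 and 68.6 CPM in controls and at 45.9, 52.6 and 36.6 CPM with SAM. The groups did not overlap, with a log2 fold change of -0.48 (SE 0.13, edgeR adjusted p = 0.0468), just inside the threshold. The call was lost in 6 of 18 alternatives, including the replicate block, and the adjusted p reached 0.209. ADAM17 overlaps IAH1 on the other strand in the annotation. ADAM10, the related protease that cleaves Notch receptors and cadherins, was at 128, 128 and 118 CPM in controls and at 108, 110 and 79.3 CPM with SAM. It was lower in every SAM library, but its log2 fold change of -0.33 (SE 0.13) did not pass (edgeR adjusted p = 0.125), nor did it in any of 18 alternatives. It was -0.19 without SAM 3 and -0.15 with the length and GC trend removed. The ratio of ADAM17 to ADAM10 was 0.504 ± 0.0665 in controls and 0.454 ± 0.0273 with SAM, with overlap. ADAM15 and ADAM8 differed by 0.01 and -0.06 on the log2 scale. ADAM22, a member without protease activity that serves as a receptor in neurons, was at 12.2 ± 0.678 and 11.5 ± 1.94 CPM, and its direction turned without SAM 3 and with the length and GC trend removed.

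Neither of the 2 tested TIMPs passed the edgeR test, and 1, TIMP1, had an unadjusted p under 0.05 and was called by DESeq2. TIMP1, the main secreted inhibitor of MMP9, was at 86.3, 94.4 and 80.8 CPM in controls and at 111, 96.9 and 152 CPM with SAM, where SAM 3 stood high and SAM 2 close to the controls. The log2 fold change was 0.46 (SE 0.16, edgeR adjusted p = 0.0853), and it was 0.26 without SAM 3 and 0.59 without SAM 2, the second of which was called. TIMP2, which inhibits MMPs and also takes part in the activation of MMP2, was at 257, 246 and 240 CPM in controls and at 190, 214 and 233 CPM with SAM (log2 fold change -0.22, SE 0.10, edgeR adjusted p = 0.164). It was called without SAM 3. The ratio of TIMP1 to TIMP2 was 0.352 ± 0.0271 in controls and 0.563 ± 0.101 with SAM, and the groups did not overlap. TIMP1 lies within SYN1, and TIMP2 overlaps CEP295NL.

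Proteases and inhibitors were also set against each other within libraries. The ratio of MMP9 to TIMP1 in CPM was 0.0857, 0.0899 and 0.102 in the controls, by number, and 0.136, 0.176 and 0.107 in the SAM libraries. The SAM libraries were higher, although SAM 3 was close to control 3. The ratio of MMP14 to TIMP2 was 0.950 ± 0.0179 in controls and 0.934 ± 0.0431 with SAM, with overlap.

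Proteins that work with the metalloproteases were followed in 5 lists, whose counts stand beside the 5.19% of all genes called higher and 5.24% called lower. Of 18 tested cofactors and inhibitors, 1 rose and none fell (median log2 fold change -0.15). This was TFPI2, a Kunitz inhibitor that protects matrix from plasmin and MMPs, at 84.0, 84.2 and 79.7 CPM in controls and 210, 158 and 140 CPM with SAM. The log2 fold change was 1.04 (SE 0.14, edgeR adjusted p = 0.00462), and it was called in all 18 alternatives. Of 9 tested genes in the list of proteases that activate metalloproteases, which also holds the urokinase receptor PLAUR, 1 fell (median -0.07), the serine protease TMPRSS2, from 5.13 ± 0.391 to 3.29 ± 0.577 CPM. Its call was lost in 10 alternatives, among them DESeq2.

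Of 10 tested genes in the list of other zinc metalloproteases, which also holds the matrix protein PAPLN, 3 rose and none fell (median 0.10, and -0.01 without control 1 and SAM 2). ECE2, an endothelin-converting enzyme, was at 21.8, 27.5 and 25.0 CPM in controls and 45.2, 38.4 and 45.8 CPM with SAM (log2 fold change 0.80, SE 0.11, edgeR adjusted p = 0.00509). ANPEP, aminopeptidase N, was at 445 ± 15.7 and 683 ± 69.6 CPM, and the gene of carboxypeptidase M at 9.60 ± 1.01 and 14.1 ± 0.701 CPM. ECE2 kept its call without each library in turn, ANPEP lost it without control 2 or 3, and carboxypeptidase M without control 1, 2 or 3 and without SAM 1.

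Transmembrane substrates of ADAM10 or ADAM17 rose in 4 and fell in 6 of 32 tested members (median -0.19). IL1R2, a shed decoy receptor for interleukin-1, was at 3.21 ± 0.410 CPM in controls and 13.3 ± 3.89 CPM with SAM, without overlap (log2 fold change 2.06, SE 0.22, edgeR adjusted p = 0.00158). SDC1, a heparan sulphate proteoglycan, rose from 170 ± 6.17 to 255 ± 10.5 CPM. ERBB4, a receptor of neuregulins, fell from 1.70 ± 0.543 to 0.428 ± 0.0902 CPM. IL1R2 was called in all 18 alternatives. SDC1 was not called without control 2 or 3, and ERBB4 not with DESeq2 or without control 1, control 2 or SAM 1. Without control 1, 2 or 3 or SAM 1, at most 2 members of this list rose and at most 1 fell. With the replicate block 3 rose and 2 fell, and without SAM 3, 6 rose and 8 fell.

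Matrix substrates of MMPs and ADAMTSs rose in 1 and fell in 3 of 15 tested members (median -0.19). LAMB3, a chain of laminin-332, rose from 747 ± 43.6 to 1024 ± 54.9 CPM. The proteoglycan BCAN fell from 4.81 ± 0.527 to 2.37 ± 0.816 CPM, and the basement membrane protein NID1 from 24.0 ± 1.55 to 16.1 ± 2.97 CPM. The third fall was COL4A1, named to complete the count. With the replicate block 0 rose and 2 fell. Without SAM 2, 1 rose and 8 fell of 16 tested, and without control 1, 2 or 3 or SAM 1, 0 rose and 0 fell. LAMB3, BCAN and NID1 all lost their calls without control 1, 2 or 3 and without SAM 1.

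The calls of the members depended on single libraries. Without control 1, 2 and 3 the members called numbered 3, 3 and 2, and without SAM 1, 2 and 3 they numbered 2, 11 and 13. Over all genes the corresponding numbers were 255, 222, 139, 215, 3233 and 2499. Without both control 1 and SAM 2, 4 members rose and 4 fell. The 10 called members kept their direction in all 18 alternatives. MMP9 and ADAMTS1 kept their calls in all of them.

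**Figure D5:**
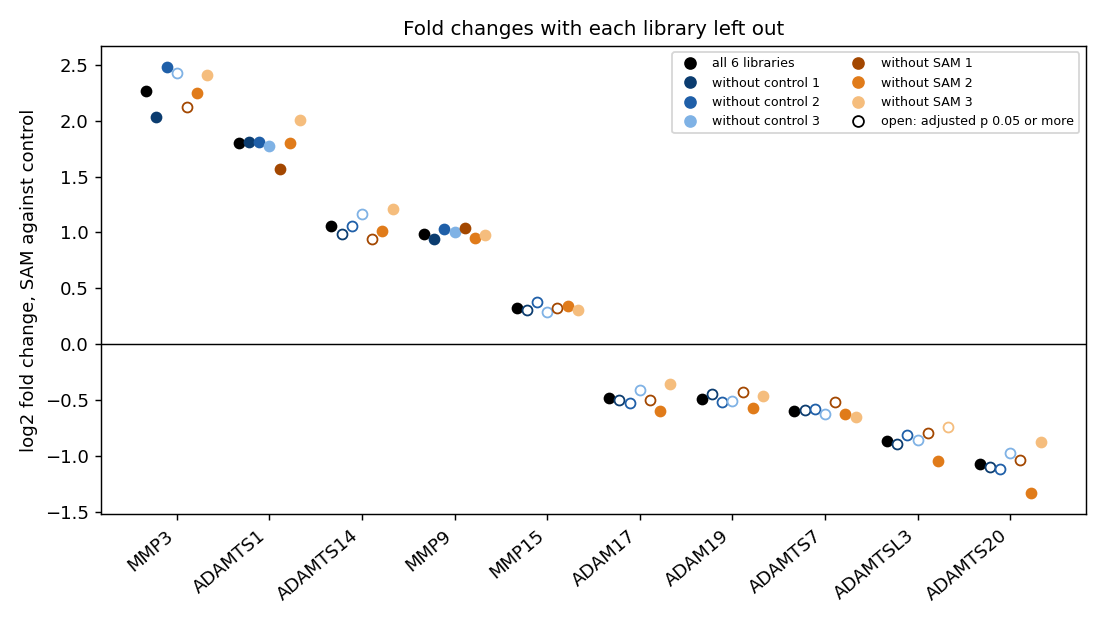
Log2 fold change of SAM against control (vertical) of the 10 called members (horizontal) with all 6 libraries in black and with each library left out in colour, open where the adjusted p was 0.05 or more. The points of MMP9 lie between 0.94 and 1.04 and are all filled, and those of ADAM19 lie between -0.57 and -0.43 and are open without any control or SAM 1.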

How the data were processed

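RNA was isolated from PC-3 cells with a Peq-Gold kit, TruSeq libraries were made from it and read on a HiSeq2000, per the labels. Tools listed in the submitters' processing notes are STAR 2.4, HTSeq 0.6.1, SAMtools 0.1.19, CASAVA 1.8.2, DESeq2 1.8 and FastQC 0.10.0. Those notes list hg19 and mm10 as builds and give no roles. The study's text gives a different SAM dose, kit and sequencer, and the labels were followed. The authors deposited raw counts per Ensembl gene for 57396 genes and a normalised signal, obtained by dividing each library's counts by a size factor between 0.562 and 1.75. Coordinates in the table overlap the gene of GENCODE 44 on GRCh38 for 99.8% of 51488 shared identifiers. The sources at hand do not say if counting used strand, and reads of overlapping genes cannot be told apart.

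Counts were tested with edgeR 4.0.16 (glmQLFit and glmQLFTest, R 4.3.3) after filterByExpr and TMM scaling, with treatment alone in the design, over 15312 genes. Tests were two-sided. CPM were computed on library sizes scaled by TMM and are given as mean ± SD. Standard errors were obtained from the fold change (log2, unsigned) over the root of F. Lengths are those of the longest GENCODE 44 transcript. Libraries of a group differed by 4.57 to 55.2 times sampling noise (chi-square per degree of freedom), so none was merged. The fit was tested on simulated data. Members and lists were chosen with earlier results of these data known. Named genes were all called members, MMP9, ADAMTS1, MMP2, MMP14, ADAM10, ADAM17, the TIMPs, the most abundant tested member of each functional group, and up to 3 called genes per list. Further members complete a group or a position, and their values had been seen when they were chosen. PRSS2 and PECAM1 were not analysed here. The alternatives were RLE, upper-quartile and no scaling factors, DESeq2 1.42.0, limma 3.58.1 voom, robust dispersion, no filter, a filter of 1 CPM or more in 3 libraries, the replicate number as a block, limma on the deposited signal (log2, pseudocount 1), each library left out, control 1 and SAM 2 left out, the length and GC trend removed, and an adjusted p under 0.01. Figures were drawn with matplotlib 3.10.9.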

Additional observations from a re-analysis of the deposited data

How the results depend on the processing

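The number of members called, 10 with all libraries, was within 1.5 times that value under 12 alternatives other than leaving out 1 library. It was 3 at an adjusted p under 0.01 and ran from 2 to 13 with 1 library left out. The number of genes called, 1598, was 253 at an adjusted p under 0.01, 2743 with no filter on low counts, 1028 with the replicate block, 2828 after removing the length and GC trend and 954 without control 1 and SAM 2. It ran from 139 to 3233 with 1 library left out. Of 378 recomputed fold changes of the named members, 319 kept direction and side of the threshold, 45 lost the call, 11 gained one and 3 turned, all in members that had not passed. ADAM22 ran from -0.16 to 0.066 with 1 library left out, turning without SAM 3, and was 0.085 once that trend was removed, where ADAMTSL5 turned to -0.0054. Replicate numbers do not pair the libraries by the labels, and same-numbered libraries correlated at -0.17, -0.40 and 0.13 in their deviations from the group means. Under the block 4 members rose and 3 fell, with MMP15, ADAM17 and ADAMTSL3 not called. Depth limits mainly MMP3, ADAMTSL3 and ADAMTS14, whose counts in control 1, the shallowest library, were 1, 21 and 23. The causes of these changes were not tested.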
